A study of Homo sapiens with 24 samples.

Results

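The 38 genes described here make, import or charge amino acids: 17 genes of amino acid synthesis and the linked one-carbon and glutathione steps, 9 plasma membrane transporter genes and 12 aminoacyl-tRNA synthetase genes. They were listed by function, with earlier results of these data known, so their shares set against all genes may come from that choice. Each gene was read from its brightest detected probe on Illumina bead arrays, and 36 of the 38 were measured among 13789 genes on 24 arrays. No probe was listed here for GPT2 and CARS1. The study asked what the histone methyltransferase EZH2 does beyond its methyltransferase activity, in C4-2B, a castration-resistant human prostate cancer line, and LNCaP, the androgen-responsive line it was derived from. In each line 1 group received siEZH2, an siRNA against EZH2 labelled CDS, and was set against siControl, a control siRNA. A further group received EPZ6438, an inhibitor of the EZH2 methyltransferase (tazemetostat), at 1 µM and was set against its solvent DMSO. All 8 groups grew in RPMI with serum for 3 days of treatment, with 3 arrays each. The labels number the replicates without saying that they were separate cultures, so p-values measure the spread between arrays, which may be technical. Each array read RNA from a whole culture, in which fewer expressing cells and less RNA per cell cannot be told apart, and 1 siRNA and 1 inhibitor dose stand for each treatment.

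Cells short of amino acids, or with stressed endoplasmic reticulum or mitochondria, phosphorylate the initiation factor eIF2, which slows most translation and favours translation of the transcription factor ATF4. ATF4, paired with C/EBP proteins, binds a composite element in the promoters of many genes for amino acid synthesis, transport and tRNA charging, which are therefore often measured together as the integrated stress response. Prostate cancer cells are known to use several of these genes, among them the glutamine transporter SLC1A5 and the leucine transporter SLC7A5.

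The ATF4 element has the core TGATGNAA, which was searched on both strands, as TGATGNAA and as TTNCATCA, in RefSeq promoter windows of GRCh38.p14 running from 250 bases before to 50 bases after a start site. The core was found in any window of 17 of 30 members with a window (56.7%), against 1217 of 27305 genes (4.46%). By class it was found in 5 of 12 synthesis genes, 5 of 8 transporter genes and 7 of 10 synthetase genes. It was found in 0 of 9 cytosolic synthetase genes that are not members and in 1 of 14 mitochondrial synthetase genes. Other amino acid transporters held it in 1 of 19, and other amino acid and folate enzymes in 0 of 19. Regulators and targets of the stress response held it in 3 of 16 (18.8%). The members and these lists were chosen with earlier results of these data known, so differences in these shares may come from that choice. They were not tested. The whole core lay before a start site in 9 of the 17 members that held it, against 1061 of the 1217 among all genes. The 6 stretches below, 5′ to 3′ on the gene's strand with the core in capitals, show the element in each class. The start sites of CHAC1, GOT1, AARS1 and IARS1 are the outermost ends of their genes, and those of ASNS and SLC1A5 lie 56033 and 3780 bases inside the annotated gene.
ASNS (asparagine synthetase; chr7:97872409-97872528, minus strand, bases -120 to -1 from the start): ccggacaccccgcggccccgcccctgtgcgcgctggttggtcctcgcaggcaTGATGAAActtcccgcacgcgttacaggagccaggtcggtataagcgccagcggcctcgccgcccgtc
CHAC1 (glutathione-degrading enzyme; chr15:40953242-40953361, plus strand, bases -229 to -110): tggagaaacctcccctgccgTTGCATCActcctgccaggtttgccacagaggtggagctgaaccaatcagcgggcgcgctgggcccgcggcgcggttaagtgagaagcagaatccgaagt
GOT1 (cytosolic aspartate aminotransferase; chr10:99430723-99430842, minus strand, bases -218 to -99): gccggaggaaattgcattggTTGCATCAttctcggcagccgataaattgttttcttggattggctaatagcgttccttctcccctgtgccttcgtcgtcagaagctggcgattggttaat
SLC1A5 (glutamine transporter; chr19:46784893-46784922, minus strand, bases -108 to -79): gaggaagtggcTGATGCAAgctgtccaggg
AARS1 (alanyl-tRNA synthetase; chr16:70289594-70289713, minus strand, bases -207 to -88): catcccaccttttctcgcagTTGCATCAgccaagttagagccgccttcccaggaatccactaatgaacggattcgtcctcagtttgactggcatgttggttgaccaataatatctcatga
IARS1 (isoleucyl-tRNA synthetase; chr9:92293698-92293817, minus strand, bases -120 to -1): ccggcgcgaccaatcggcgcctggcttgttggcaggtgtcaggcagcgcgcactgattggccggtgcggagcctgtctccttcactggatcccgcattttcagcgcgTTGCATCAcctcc

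**Figure D1:**
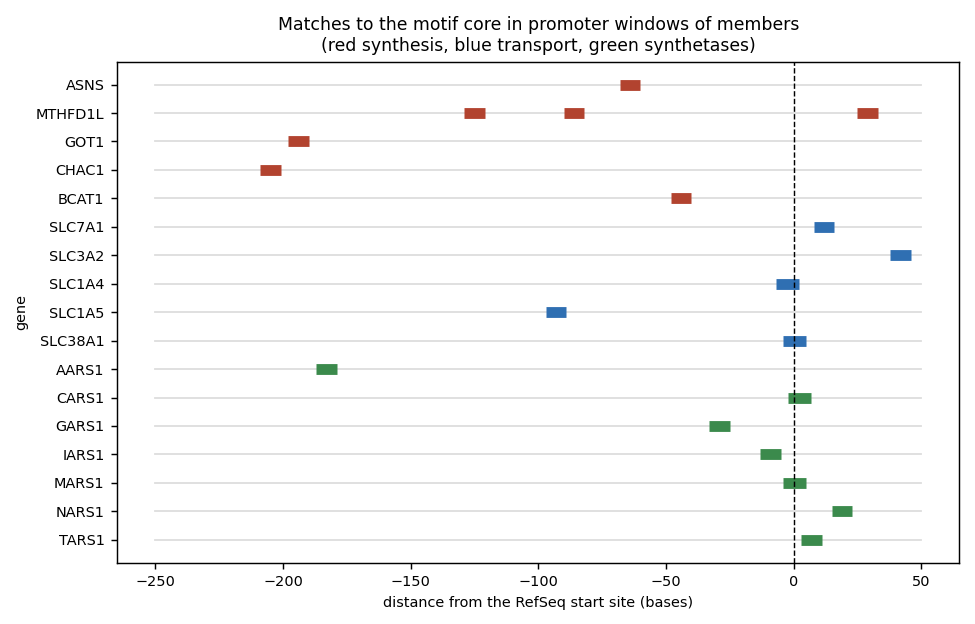
Positions of the 8-base core on either strand in the promoter windows of the 17 members that hold it, with the distance from the RefSeq start site in bases on the x axis and 1 row per gene (all windows of a gene share its row). The core lies before the start in ASNS, GOT1, CHAC1, BCAT1, SLC1A5, AARS1, GARS1 and IARS1, spans or follows it in the other transporter and synthetase genes, and lies on either side in MTHFD1L, depending on the window.

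Between 19304 and 21653 probes were detected per array (40.8% to 45.8%), and 32 of the 36 measured members were detected on all 24 arrays. The exceptions were SLC1A4 (23 arrays), BCAT1 (14), ALDH1L2 (7) and CHAC1 (6). All 6 luminal markers with a probe were detected on every array and both basal keratins with a probe, KRT5 and KRT14, on none. Of 5 fibroblast markers COL1A1 was detected on 21 arrays and LUM on 0, and of 4 blood markers with a probe CD14 was detected on 20 and PTPRC on 0. EZH2 read 5.73, 5.89 and 5.93 (normalised log2 intensity, the scale of all levels and differences here) with siEZH2 in LNCaP, against 6.71, 6.73 and 6.73 with siControl, and 6.19, 6.85 and 6.50 with siEZH2 in C4-2B, against 7.58, 7.25 and 7.76. The knockdown groups did not overlap their controls, with log2 differences of -0.87 (SE 0.158, adjusted p = 0.000174) and -1.02 (SE 0.158, adjusted p = 7.16e-05), whereas with EPZ6438 EZH2 differed by -0.12 in LNCaP and -0.0024 in C4-2B (adjusted p = 0.739 and 0.996).

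1 group stood apart across the members before any treatment was compared. The 3 C4-2B DMSO arrays lay above all 21 other arrays in 31 of 36 members, or 86.1%, against 2.92% of all genes (14 of 16 synthesis, 8 of 9 transporter and 9 of 11 synthetase genes). The exceptions were ALDH1L2, ALDH18A1, SLC38A2, LARS1 and WARS1. DMSO replicate 3 was the lowest of the 3 in 33 of 36 members, or 91.7%, against 45.7% of all genes. The C4-2B EPZ6438 mean lay above the siControl mean and below the DMSO mean of that line in 29 of 36 members (80.6%, against 18.7% of all genes). In 14 members all 3 EPZ6438 arrays lay above the 6 siRNA arrays and below the 3 DMSO arrays (38.9%, against 1.92% of all genes). These C4-2B DMSO arrays are the control of every EPZ6438 comparison in that line, so what set this group apart and the effect of EPZ6438 cannot be told apart.

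**Figure D2:**
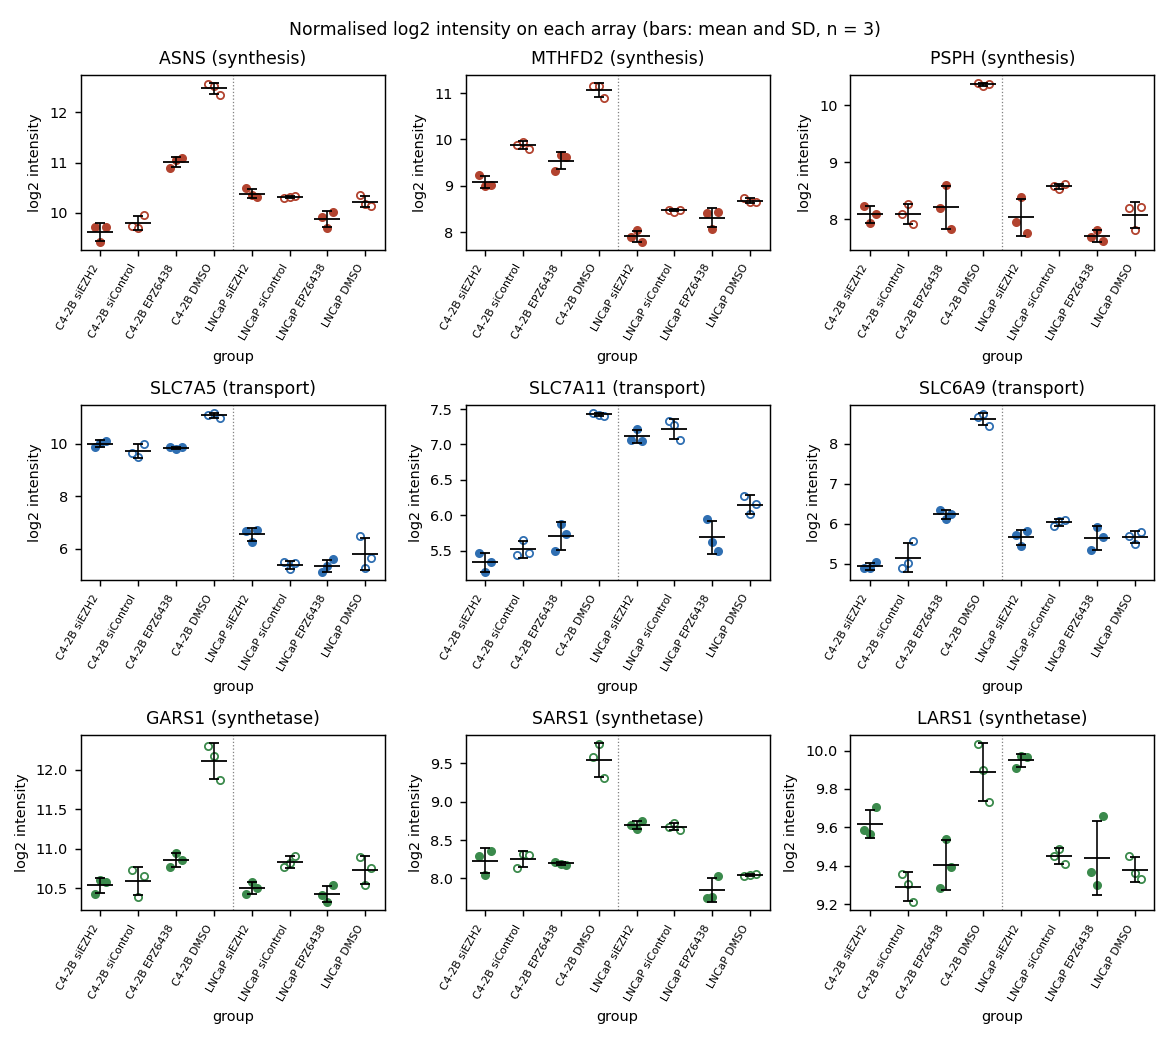
Normalised log2 intensity of 9 members on each array, in 8 groups of 3 arrays (filled points treated, open points control; horizontal marks and bars are the mean and SD; the dotted line parts C4-2B, on the left, from LNCaP). The C4-2B DMSO arrays are the highest of all groups for 8 of the 9 genes, LARS1 being the exception, and SLC7A5 is higher in every C4-2B group than in any LNCaP group.

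Knockdown of EZH2 in LNCaP moved members in both directions. Of 36 members 5 rose and 7 fell (33.3% in all) at an adjusted p under 0.05, where 26.7% of all genes tested were called (14.2% higher, 12.5% lower), and the median member moved by -0.00080 on the log2 scale, against 0.022 over all genes. Over all members, called or not, the siEZH2 and siControl arrays were without overlap in 21 of 36 (58.3%), against 46.4% of all genes. Synthesis genes gave 2 higher and 5 lower of 16, transporters 2 higher and 1 lower of 9, and synthetases 1 higher and 1 lower of 11.
In serine synthesis, PHGDH, which commits glycolytic carbon to serine, read 11.85, 11.90 and 11.94 with siEZH2, against 12.42, 12.53 and 12.50 with siControl, a fall of 0.59 (SE 0.101, adjusted p = 9.72e-05). PSPH, the last enzyme of that pathway, read 7.95, 8.39 and 7.76 with siEZH2, against 8.58, 8.54 and 8.61 with siControl (log2 difference -0.54, SE 0.160, adjusted p = 0.0130). MTHFD2, a mitochondrial folate enzyme, read 7.90, 8.04 and 7.79 with siEZH2, against 8.49, 8.45 and 8.48 with siControl (-0.56, SE 0.113, adjusted p = 0.000602). All siEZH2 arrays lay below all siControl arrays for these 3 genes, and PSPH spread most among the knockdown arrays. ASNS did not pass, at 10.49, 10.35 and 10.31 with siEZH2, against 10.30, 10.32 and 10.35 with siControl (0.06, SE 0.107, adjusted p = 0.743).
Among transporters, SLC7A5, the large neutral amino acid transporter LAT1, read 6.68, 6.25 and 6.71 with siEZH2, against 5.48, 5.21 and 5.45 with siControl, a rise of 1.16 (SE 0.201, adjusted p = 9.94e-05), or 2.24-fold. SLC38A2, a sodium-coupled neutral amino acid transporter, read 9.78, 9.62 and 9.71 with siEZH2, against 9.27, 9.28 and 9.15 with siControl (0.47, SE 0.127, adjusted p = 0.00716). SLC1A5 read 7.90, 7.81 and 7.97 with siEZH2, against 8.25, 8.39 and 8.40 with siControl (-0.46, SE 0.124, adjusted p = 0.00735). SLC7A5 and SLC38A2 were thus higher on every knockdown array and SLC1A5 lower on every one. SLC7A11, the cystine importer of system xc-, did not pass (-0.11, SE 0.120, adjusted p = 0.576).
Among synthetases, LARS1, which charges leucine, read 9.91, 9.97 and 9.97 with siEZH2, against 9.45, 9.49 and 9.41 with siControl (0.50, SE 0.10, adjusted p = 0.000516). GARS1, which charges glycine, read 10.43, 10.58 and 10.50 with siEZH2, against 10.77, 10.82 and 10.91 with siControl (-0.33, SE 0.116, adjusted p = 0.0356). These were the 2 synthetases called, and they moved in opposite directions. Median centring over all probes, used in place of quantile normalisation, left 1 member higher and 0 lower, and moved the calls over all genes to 1456 higher and 233 lower, against 1964 and 1721. Leaving out siEZH2 replicate 3 left 7 members called.

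Knockdown in C4-2B called 3 members higher and 3 lower, 16.7% of the 36, which is near the 18.7% of all genes called (10.1% higher, 8.53% lower), with a member median of -0.048 against 0.025 over all genes. Called or not, 14 of 36 members (38.9%) had siEZH2 and siControl arrays without overlap, against 32.6% of all genes. Synthesis genes accounted for 5 of the 6 calls (2 higher, 3 lower of 16), synthetases for 1 of 11 and transporters for 0 of 9 by limma (1 at an unadjusted p under 0.05).
MTHFD2 read 9.24, 8.99 and 9.01 with siEZH2, against 9.88, 9.95 and 9.78 with siControl, a fall of 0.79 (SE 0.113, adjusted p = 2.56e-05). ALDH18A1, which starts proline synthesis, read 9.38, 9.32 and 9.27 with siEZH2, against 8.93, 8.84 and 8.77 with siControl (0.47, SE 0.111, adjusted p = 0.00368). CTH, which makes cysteine from cystathionine, read 5.48, 5.40 and 5.71 with siEZH2, against 5.97, 5.87 and 5.97 with siControl (-0.41, SE 0.144, adjusted p = 0.0496). The siEZH2 and siControl arrays did not overlap for any of these 3 genes, and the CTH call, just under the threshold, was lost with the replicate number as a block (adjusted p = 0.0597).
LARS1 read 9.58, 9.57 and 9.70 with siEZH2, against 9.36, 9.31 and 9.21 with siControl (0.33, SE 0.10, adjusted p = 0.0239), higher on every knockdown array. The other called members were SHMT2, the mitochondrial enzyme that takes a one-carbon unit from serine (0.30), and GOT1 (-0.27). PHGDH, SLC7A11 and SLC7A5 did not pass, with log2 differences of -0.25, -0.19 and 0.30 (adjusted p = 0.0841, 0.323 and 0.351), and neither did ASNS (-0.17, adjusted p = 0.289). Centring on the median of all probes left 0 members called by limma and moved the calls over all genes to 975 higher and 72 lower, against 1396 and 1176. Leaving out siControl replicate 1 or siEZH2 replicate 1 left 3 called, and leaving out siControl replicate 2 left 2. The difference between the siEZH2 effects in C4-2B and in LNCaP was called for 0 of 36 members by limma (5 at an unadjusted p under 0.05; 5.78% of all genes called, 3.15% higher and 2.63% lower), ranged from -0.87 to 0.54 and had a lowest adjusted p of 0.0731, for SLC7A5. Fitting only the groups compared called 2.

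**Figure D3:**
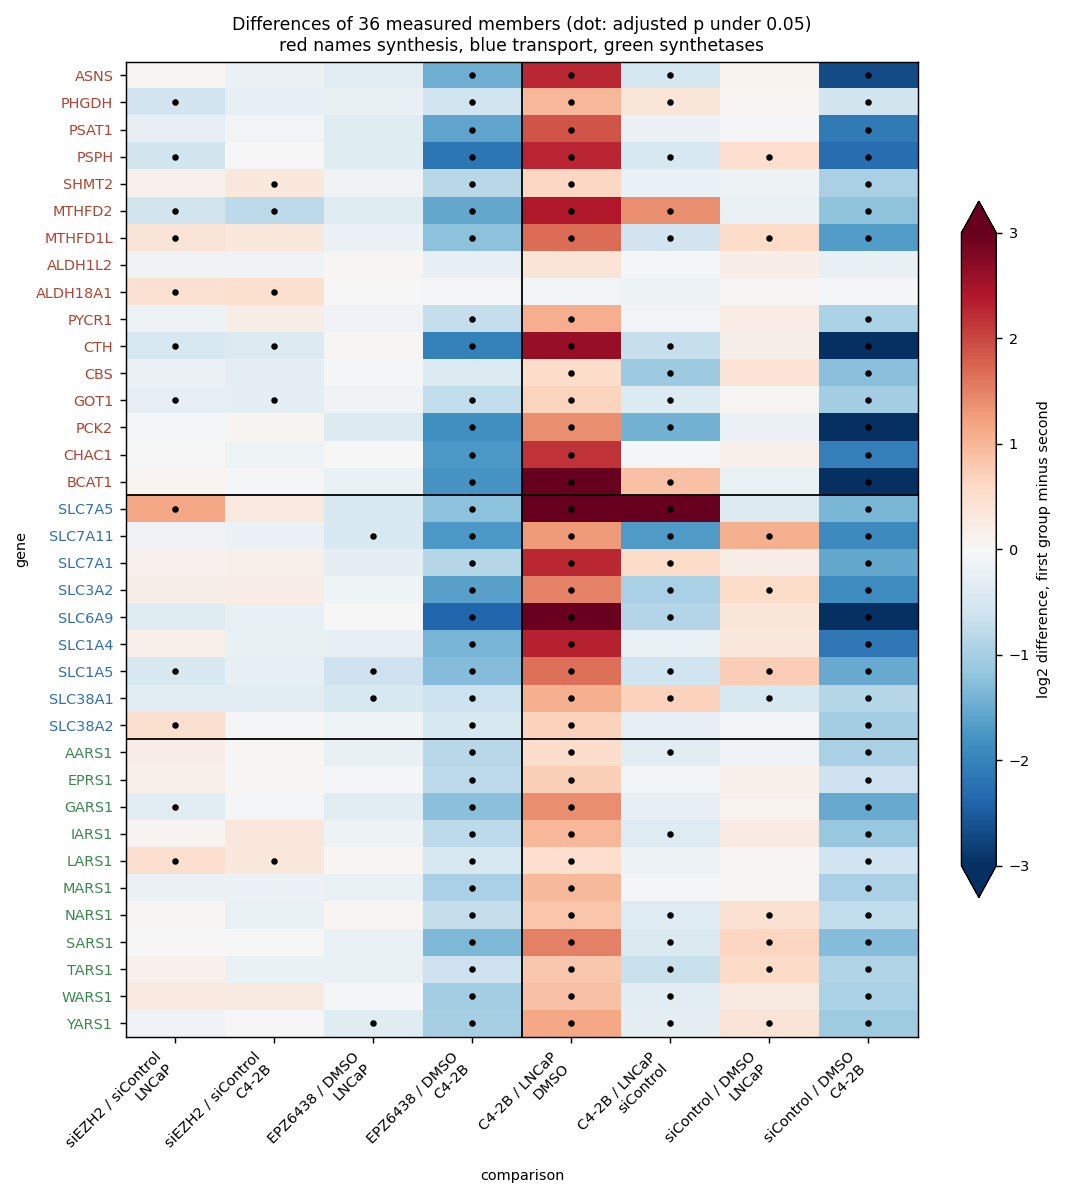
Log2 differences of the 36 measured members (rows, grouped as synthesis, transport and synthetase genes) in 4 treatment comparisons and 4 comparisons of lines or of controls (columns, first group minus second; colours saturate at 3; dots mark an adjusted p under 0.05). The EPZ6438 column of C4-2B is blue in all 36 rows, with 33 dots, and the siControl against DMSO column of the same line has 34.

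With EPZ6438 in LNCaP 4 members (11.1%) fell and 0 rose (limma; 0 higher and 14 lower at an unadjusted p under 0.05), where 6.68% of all genes were called (4% higher, 2.68% lower). The member median was -0.20, against 0.0086 over all genes. Called or not, 16 of 36 members (44.4%) had EPZ6438 and DMSO arrays without overlap, against 21.8% of all genes. Transporters gave 3 of the 4 calls, synthetases 1 and synthesis genes 0 of 16 (6 lower at an unadjusted p under 0.05).
SLC1A5 read 6.95, 7.10 and 6.90 with EPZ6438, against 7.49, 7.53 and 7.79 with DMSO, a fall of 0.62 (SE 0.124, adjusted p = 0.00362). SLC38A1, a glutamine transporter of the SLC38 family, read 8.35, 8.37 and 7.98 with EPZ6438, against 8.97, 8.49 and 8.67 with DMSO (-0.48, SE 0.129, adjusted p = 0.0271). SLC7A11 read 5.94, 5.63 and 5.49 with EPZ6438, against 6.28, 6.02 and 6.15 with DMSO (-0.46, SE 0.120, adjusted p = 0.0210). For each of the 3 transporters every EPZ6438 array lay below every DMSO array, by the narrowest margin for SLC7A11.
YARS1, which charges tyrosine, read 9.54, 9.66 and 9.79 with EPZ6438, against 10.09, 9.92 and 10.07 with DMSO (-0.36, SE 0.0864, adjusted p = 0.0118), also without overlap. ASNS read 9.91, 9.71 and 10.02 with EPZ6438, against 10.35, 10.18 and 10.13 with DMSO, and did not pass (-0.34, SE 0.107, adjusted p = 0.0544). PHGDH and SLC7A5 did not pass either (-0.23 and -0.45, adjusted p = 0.189 and 0.188), and the SLC7A5 DMSO arrays spread from 5.28 to 6.49. The count depended on the fit: 7 members were called with an intensity trend and robust prior, and 0 with only the groups compared or with arrays centred on the median of all probes (26 genes higher and 2 lower in all, against 552 and 369). Leaving out DMSO replicate 1 or replicate 3 left 1 called, and leaving out EPZ6438 replicate 3 left 2.

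C4-2B treated with EPZ6438 had lower signal than its DMSO control for nearly the whole list. Of 36 members 33 (91.7%) fell and 0 rose by limma (34 lower and 0 higher at an unadjusted p under 0.05), all 36 differences were negative, and 15.2% of all genes were called (8.14% higher, 7.04% lower). The member median was -1.02, against 0.0040 over all genes. Called or not, 34 of 36 members (94.4%) had EPZ6438 and DMSO arrays without overlap, against 28.9% of all genes. Of the synthesis genes 13 of 16 fell with a class median of -1.35, of the transporters 9 of 9 with a median of -1.31, and of the synthetases 11 of 11 with a median of -0.84. Taken array by array against the DMSO mean, the class median ran from -1.34 to -1.23 for synthesis, from -1.36 to -1.20 for transport and from -0.88 to -0.81 for synthetase genes. Synthetases thus moved least on each EPZ6438 array, but the gap depended on background handling. Without background correction the medians of synthesis, transport and synthetase genes were -0.88, -0.97 and -0.83. With an offset of 50 they were -1.03, -1.20 and -0.83. The difference between classes was not tested.
In synthesis, PSPH read 8.21, 8.59 and 7.84 with EPZ6438, against 10.39, 10.34 and 10.38 with DMSO, a fall of 2.16 (SE 0.160, adjusted p = 7.1e-10), or 4.47-fold. CTH read 6.70, 7.07 and 7.29 with EPZ6438, against 9.06, 9.10 and 8.97 with DMSO (-2.02, SE 0.144, adjusted p = 3.89e-10). PCK2, the mitochondrial phosphoenolpyruvate carboxykinase, read 9.51, 9.63 and 9.56 with EPZ6438, against 11.67, 11.58 and 11.00 with DMSO (-1.85, SE 0.150, adjusted p = 3.27e-09). The EPZ6438 arrays lay more than 1 log2 unit below the DMSO arrays for each of the 3.
ASNS read 10.89, 11.05 and 11.09 with EPZ6438, against 12.55, 12.52 and 12.34 with DMSO (-1.46, SE 0.107, adjusted p = 6.12e-10). PHGDH fell less, at 12.79, 12.74 and 12.92 with EPZ6438, against 13.55, 13.48 and 13.19 with DMSO (-0.59, SE 0.101, adjusted p = 0.00018). Both genes were thus without overlap between the groups. PSAT1, the middle enzyme of serine synthesis, fell by 1.59, MTHFD2 by 1.53, and BCAT1, which transaminates branched-chain amino acids, by 1.77. The 3 members that did not pass were CBS (-0.42, adjusted p = 0.0699), ALDH1L2 (-0.26, adjusted p = 0.342) and ALDH18A1 (-0.04, adjusted p = 0.870).
Among transporters, SLC6A9, the glycine transporter GlyT1, read 6.35, 6.12 and 6.25 with EPZ6438, against 8.67, 8.74 and 8.45 with DMSO, a fall of 2.38 (SE 0.153, adjusted p = 6.09e-11), or 5.21-fold. 2 dimmer probes of SLC6A9 gave -0.18 and -0.06, with mean signals of 4.39 and 4.32, near background. SLC7A11 read 5.50, 5.88 and 5.74 with EPZ6438, against 7.45, 7.42 and 7.40 with DMSO (-1.72, SE 0.120, adjusted p = 2.76e-10). Its partner SLC3A2, the heavy chain shared with SLC7A5, read 8.79, 8.75 and 8.94 with EPZ6438, against 10.66, 10.53 and 10.16 with DMSO (-1.62, SE 0.140, adjusted p = 1.04e-08). All 3 were without overlap. SLC7A5 read 9.87, 9.81 and 9.88 with EPZ6438, against 11.10, 11.17 and 10.97 with DMSO (-1.23, SE 0.201, adjusted p = 0.000107), and the smallest fall among transporters was that of SLC38A2 (-0.45).
Among synthetases, SARS1, which charges serine, read 8.22, 8.19 and 8.18 with EPZ6438, against 9.58, 9.75 and 9.31 with DMSO (-1.35, SE 0.106, adjusted p = 2e-09). GARS1 read 10.77, 10.95 and 10.86 with EPZ6438, against 12.31, 12.18 and 11.87 with DMSO (-1.25, SE 0.116, adjusted p = 3.16e-08). WARS1, which charges tryptophan, read 8.79, 8.66 and 8.56 with EPZ6438, against 9.96, 9.94 and 9.26 with DMSO (-1.05, SE 0.140, adjusted p = 7.23e-06). DMSO replicate 3 came nearest to the EPZ6438 arrays for all 3, without overlap. The smallest fall was that of LARS1 (-0.48). Second and further probes, 14 of 10 members, had the same sign as the probe used in 14 of 14 cases here, against 9 of 14 with EPZ6438 in LNCaP, and in 11 and 13 of 14 with siEZH2 in LNCaP and C4-2B. Sizes differed between probes: the 2 other probes of PCK2 gave -1.91 and -0.997, against -1.85 for the probe used. Members with the promoter core had a median of -1.11 (16 of 16 measured called lower), and members with a window but no core a median of -1.23 (11 of 13 called lower). Leaving out any 1 of the 6 arrays left 32 or 33 members called, and centring on the median of all probes left 21 (181 genes higher and 84 lower in all, against 1122 and 971).

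**Figure D4:**
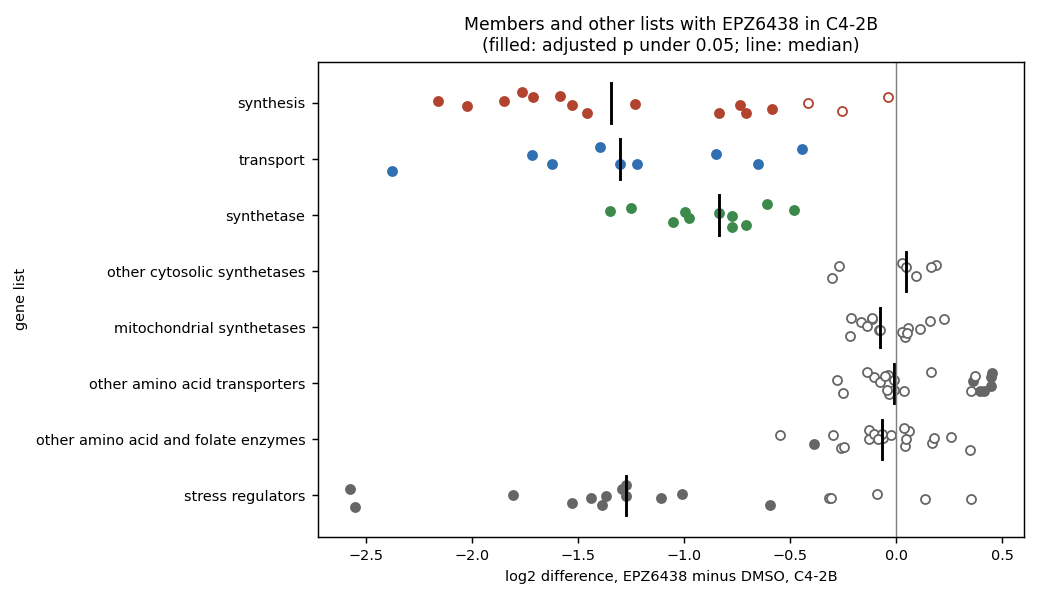
Log2 difference of each gene with EPZ6438 against DMSO in C4-2B (x axis), by gene list (rows; filled points passed an adjusted p of 0.05, lines mark medians, points are spread vertically only for legibility). The 3 member classes and the stress regulators have medians from -1.35 to -0.84, while the other synthetases, transporters and enzymes lie around 0. The lists were chosen with earlier results of these data known.

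Other lists of related genes were counted in this comparison, where 15.2% of all genes were called. No difference between lists was tested. Members and lists were chosen with earlier results of these data known, so differences between them may come from that choice. Of 18 measured regulators and targets of the stress response 13 (72.2%) fell and 0 rose (15 lower and 0 higher at an unadjusted p under 0.05; median -1.28). The largest falls were of DDIT3, the stress transcription factor CHOP (-2.58, SE 0.141, adjusted p = 4.7e-12), TRIB3, a pseudokinase that is a target of the response (-2.56, SE 0.159, adjusted p = 3.51e-11), and SESN2, a leucine-binding inhibitor of mTORC1 (-1.81, SE 0.166, adjusted p = 2.73e-08). None of 7 other cytosolic synthetases was called by limma (0 higher and 2 lower at an unadjusted p under 0.05; median 0.04). Likewise 0 of 15 mitochondrial synthetases were called by limma (0 higher and 2 lower unadjusted; median -0.08). Of 21 other amino acid transporters 6 rose and 0 fell (median -0.01), among them the lysosomal SLC36A1 (0.45), SLC43A2 (0.45) and the mitochondrial aspartate-glutamate carrier SLC25A13 (0.45). Of 20 other amino acid and folate enzymes 1 fell, GLUD1, the mitochondrial glutamate dehydrogenase (-0.39, SE 0.119, adjusted p = 0.0280).
With siEZH2 the stress regulators gave 4 higher and 2 lower of 18 in LNCaP (33.3%, against 26.7% of all genes) and 3 higher and 3 lower in C4-2B (33.3%, against 18.7%), with ATF5, a relative of ATF4, lower in both (-0.86, SE 0.181, adjusted p = 0.000827 and -1.89, SE 0.181, adjusted p = 8.41e-08). KARS1, which charges lysine and is not a member, fell by 1.18 in LNCaP (SE 0.108, adjusted p = 1.32e-08) and by 1.24 in C4-2B (SE 0.108, adjusted p = 2.14e-08). ARG2, the mitochondrial arginase, fell by 1.72 in LNCaP (SE 0.144, adjusted p = 3.12e-09), and SHMT1, the cytosolic counterpart of SHMT2, fell by 0.71 in LNCaP and by 0.78 in C4-2B (adjusted p = 8.06e-06 and 6.72e-06). Others rose: VLDLR by 0.80 in LNCaP and 0.91 in C4-2B, DDIT4 by 0.94 in C4-2B, and SLC38A9 by 1.26 and 0.41. The other amino acid transporters gave 7 higher and 3 lower of 21 in LNCaP (47.6%, against 26.7% of all genes). They gave 3 higher and 2 lower in C4-2B (23.8%, against 18.7%). With EPZ6438 in LNCaP the stress regulators gave 2 higher and 2 lower of 18 (22.2%, against 6.68% of all genes), with ATF5 lower (-0.78) and ATF3, a stress-induced transcription factor, higher (0.66, SE 0.184, adjusted p = 0.0311).

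The siEZH2 and EPZ6438 effects were set against each other within each line as the siEZH2 difference minus the EPZ6438 difference. In C4-2B the contrast was positive and called for 30 of 36 members and negative and called for 0 (limma; 33 and 0 unadjusted; 13.9% of all genes called, 6.61% positive and 7.26% negative), with a median of 1.08. Centring on the median of all probes called 15 in C4-2B and 1 in LNCaP. In C4-2B the contrast was 2.16 for SLC6A9 (SE 0.216, adjusted p = 2.11e-07), 2.15 for PSPH (SE 0.226, adjusted p = 4.52e-07) and 1.33 for SARS1 (SE 0.150, adjusted p = 1.13e-06). Other probes differed. A second PSPH probe gave -0.61 with siEZH2 in C4-2B, against -0.0074 for the probe used, and -1.83 with EPZ6438. The 2 dimmer SLC6A9 probes gave -0.07 and -0.12 with siEZH2 in C4-2B, and -0.18 and -0.06 with EPZ6438. The contrast was not computed for these other probes. In LNCaP it was positive and called for 5 and negative and called for 0, or 13.9% of members (limma; 12 and 2 unadjusted; 18.5% of all genes called, 8.8% positive and 9.7% negative): SLC7A5 (1.62, SE 0.284, adjusted p = 0.000232), SLC38A2 (0.60), MTHFD1L, a mitochondrial folate enzyme (0.54), ALDH18A1 (0.46) and LARS1 (0.44). This LNCaP count ranged from 1 to 6 with 1 array left out: 1 without DMSO replicate 1 or EPZ6438 replicate 2, 2 without siControl replicate 1, siControl replicate 3 or siEZH2 replicate 3, and 3 without siControl replicate 2, siEZH2 replicate 1 or siEZH2 replicate 2.
The EPZ6438 effect itself was lower in C4-2B than in LNCaP for 26 of 36 members and higher for 0 (limma; 31 and 0 unadjusted; 6.67% of all genes called, 3.24% higher and 3.43% lower), with a median of -0.78. The count fell to 3 with arrays centred on the median of all probes. The difference between lines was -2.36 for SLC6A9 (SE 0.216, adjusted p = 1.26e-07), -2.05 for CTH (SE 0.204, adjusted p = 4.89e-07) and -1.16 for SARS1 (SE 0.150, adjusted p = 2.17e-05). The SLC6A9 value rests on 1 probe. Its 2 dimmer probes, near background, gave -0.18 and -0.06 in C4-2B and 0.17 and 0.02 in LNCaP. This contrast and the siEZH2 minus EPZ6438 contrast in C4-2B use the C4-2B DMSO arrays. They share them with the EPZ6438 comparison of that line.

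The lines and the control groups were compared directly to show where that DMSO group lies. Between C4-2B and LNCaP in DMSO 34 of 36 members were higher in C4-2B and 0 lower (limma; 35 and 0 unadjusted), where 39.8% of all genes were called (19.9% higher, 20% lower), with a member median of 1.22. BCAT1 read 9.32, 9.23 and 8.53 in C4-2B, against 4.57, 4.54 and 4.31 in LNCaP, where 2 of 3 arrays detected it (4.55, SE 0.142, adjusted p = 8.37e-18). SLC7A5 read 11.10, 11.17 and 10.97 in C4-2B, against 6.49, 5.28 and 5.63 in LNCaP (5.28, SE 0.201, adjusted p = 2.87e-16). These 2 genes were separated by over 3 log2 units between the lines. CHAC1 was detected on all C4-2B and on no LNCaP DMSO array and was at least 3.68-fold higher in C4-2B, taking as the LNCaP level the higher of each array's lowest detected signal and the probe's own.
With siControl in place of DMSO, 6 members were higher in C4-2B and 18 lower, where 46.9% of all genes were called (22.6% higher, 24.3% lower), and the median was -0.27. With arrays centred on the median of all probes 5 were higher and 6 lower. SLC7A5 read 9.64, 9.50 and 10.01 in C4-2B, against 5.48, 5.21 and 5.45 in LNCaP (4.33, SE 0.201, adjusted p = 7.22e-15), and MTHFD2 was also higher (1.40, SE 0.113, adjusted p = 2.41e-10). BCAT1, on no LNCaP siControl array above background, was at least 1.54-fold higher in C4-2B. SLC7A11 read 5.44, 5.65 and 5.46 in C4-2B, against 7.32, 7.28 and 7.06 in LNCaP (-1.70, SE 0.120, adjusted p = 1.97e-11), and PCK2 was lower by 1.42 (SE 0.150, adjusted p = 2.51e-08). So the line difference was negative for SLC7A11 and PCK2 among siControl arrays, while among DMSO arrays both were higher in C4-2B (1.28 and 1.40). None of the 11 synthetases was higher in C4-2B with siControl by limma (0 unadjusted) and 7 were lower (8 unadjusted), led by TARS1, which charges threonine (-0.66, SE 0.107, adjusted p = 1.6e-05).
The transfected control was set against the solvent control within each line, which differ in transfection and in solvent. In C4-2B siControl was lower than DMSO for 34 of 36 members and higher for 0 (limma; 34 and 0 unadjusted; 40.2% of all genes called, 19% higher and 21.1% lower), with a median of -1.22. Median centring over all probes called 20 lower in C4-2B and, in the LNCaP comparison that follows, 1 higher. BCAT1 differed by -3.87 (SE 0.142, adjusted p = 3.3e-16), SLC6A9 by -3.46 (SE 0.153, adjusted p = 1.12e-14) and GARS1 by -1.52 (SE 0.116, adjusted p = 2.09e-10). In LNCaP siControl was higher than DMSO for 9 members and lower for 1, SLC38A1, or 27.8% of members (26.5% of all genes called, 12.7% higher and 13.8% lower; median 0.17). SLC7A11 read 7.32, 7.28 and 7.06 with siControl, against 6.28, 6.02 and 6.15 with DMSO (1.07, SE 0.120, adjusted p = 5.3e-07), SLC1A5 differed by 0.75 (SE 0.124, adjusted p = 7.82e-05) and SARS1 by 0.63 (SE 0.106, adjusted p = 9.21e-05). The siControl arrays were thus on opposite sides of the DMSO arrays for SLC7A11 and SARS1 in the 2 lines.

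Over the 4 treatment comparisons 34 of 36 members were called at least once (94.4%, against 44.4% of all genes), 33 of them in the EPZ6438 comparison of C4-2B. CBS and ALDH1L2, both synthesis genes, were called in none, CBS being the transsulfuration enzyme upstream of CTH and ALDH1L2 a mitochondrial folate enzyme near background. 5 members (13.9%, against 4.17% of all genes) were called in both directions: SHMT2, MTHFD1L, SLC7A5, SLC38A2 and LARS1, each higher with siEZH2 in at least 1 line and lower with EPZ6438 in C4-2B.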

How the data were processed

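The deposited table of bead intensities that were not normalized, with its detection p-values, was used; per the labels it holds 24 arrays of total RNA, and the submitters' processing notes name GenomeStudio without a version. The authors' processed intensity table, which looks background-subtracted and quantile-normalised, was an alternative. Intensities were background-corrected with normexp on the detection p-values, an offset of 16 was added, and arrays were quantile-normalised and put on the log2 scale (neqc, limma 3.58.1, R 4.3.3). Of 47311 probes 30108 had 1 gene symbol, 8 several and 17195 none; 30069 matched RefSeq by Entrez ID. Probes detected at p under 0.05 on at least 3 arrays were kept (26278), and the brightest stood for each of 13789 genes. 8 group means were fitted with lmFit and eBayes; 12 contrasts were each adjusted by Benjamini-Hochberg over all genes, called at 0.05. The number of arrays limits the precision. In data simulated for EPZ6438 against DMSO in C4-2B, 52% of 50 genes changed by 0.5 and 92% of 50 changed by 1 (log2) were called among 13789 genes. The only other genes changed were 50 each at 1.5 and 2. That is a smaller share than the 15.2% called in the real comparison, so these rates need not hold there.

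The members and lists were chosen with earlier results of these data known. Per comparison, the text names up to 3 called members per class by size, with ASNS, PHGDH, SLC7A11 and SLC7A5 in every treatment comparison, and up to 3 called genes of each other list; further members were named after their values were seen. No pairing by replicate number was assumed: in no treatment comparison were all 3 correlations of same-numbered arrays over 0.1. The alternatives were 2 median centrings, the processed table (floor 10), no background correction, an offset of 50, the mean of probes, a stricter filter (p under 0.01) and none, a trended robust prior, the compared groups only, a replicate block and each array left out.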

Additional observations from a re-analysis of the deposited data

Results flagged for a closer look

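The EPZ6438 effect differed between C4-2B and LNCaP for 26 members in the test of the difference itself (limma, adjusted p under 0.05); each value is the log2 effect in C4-2B minus that in LNCaP, and each is negative. Median centring over all probes called 3, and 23 of the 26 lost the call under at least 1 alternative. Of the synthesis genes 11 were concerned, with differences of ASNS -1.12, PSAT1 -1.22, PSPH -1.79, SHMT2 -0.74, MTHFD2 -1.17, MTHFD1L -1.07, CTH -2.05, GOT1 -0.62, PCK2 -1.43, CHAC1 -1.73, BCAT1 -1.57. CHAC1 was detected on 0 of 6 LNCaP arrays of this comparison and BCAT1 on 0 of 3 with EPZ6438 and 2 of 3 with DMSO, so their LNCaP effects compare signal mostly at background and the 2 values have no exact size. Of the transporter genes 6 were concerned, with differences of SLC7A11 -1.26, SLC7A1 -0.59, SLC3A2 -1.50, SLC6A9 -2.36, SLC1A4 -1.15, SLC1A5 -0.69. The SLC6A9 value rests on 1 of 3 probes, the others being near background. Of the synthetase genes 9 were concerned, with differences of AARS1 -0.60, EPRS1 -0.71, GARS1 -0.95, LARS1 -0.54, MARS1 -0.78, NARS1 -0.78, SARS1 -1.16, WARS1 -0.99, YARS1 -0.63. Adjusted p-values ran from 1.26e-07 for SLC6A9 to 0.0250 for AARS1. All of these values rest on the C4-2B DMSO arrays, and the part of that group in the result was not tested.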

How the results depend on the processing

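For the 33 called members of the EPZ6438 comparison in C4-2B, 17 of 561 alternative results lost the call and 0 reversed. At least 1 alternative lost the call for 12 of the 33. The tally was 11 and 0 of 578 for the lines with DMSO, and 14 and 0 of 578 for siControl against DMSO in C4-2B. With siEZH2 it was 29 and 1 of 204 in LNCaP (11 of 12 members at least once) and 32 and 0 of 102 in C4-2B (6 of 6). With EPZ6438 in LNCaP it was 20 and 0 of 68 (4 of 4). Centring each array on the median of all probes, with no quantile step, changed the counts most. It called 1 member with siEZH2 in LNCaP, 0 with siEZH2 in C4-2B (limma), 0 with EPZ6438 in LNCaP (limma), 21 with EPZ6438 in C4-2B, 1 and 15 for siEZH2 minus EPZ6438 in LNCaP and C4-2B, 3 for the EPZ6438 difference between lines, 11 between lines with siControl, and 1 and 20 for siControl against DMSO in LNCaP and C4-2B. It also moved the median of all genes to 0.18 and 0.21 for siEZH2 in LNCaP and C4-2B, turned GOT1 in LNCaP to 0.035 (adjusted p = 0.951), and turned the class medians with siEZH2 positive for synthesis in LNCaP (0.04) and for synthesis, transport and synthetases in C4-2B (0.11, 0.10 and 0.21). Centring on probes detected on all arrays moved the median of all genes to -0.12 and -0.14 and called 3 for siEZH2 minus EPZ6438 in LNCaP, where no background correction and a trended robust prior each called 8. The trended prior called 7 with EPZ6438 in LNCaP and fitting only the compared groups called 0 (limma) there and 2 for the siEZH2 difference between lines. The cause was not tested. The replicate block, whose numbers share no stated source, left the counts within 1.5 times of those of the main fit without a block. It lost CTH with siEZH2 in C4-2B (adjusted p = 0.0597). With 1 array left out the members called ranged from 7 to 10 and 2 to 4 with siEZH2 in LNCaP and C4-2B, 1 to 6 and 32 to 33 with EPZ6438, 1 to 6 and 28 to 32 for siEZH2 minus EPZ6438, 0 to 1 and 22 to 29 for the siEZH2 and EPZ6438 differences between lines, 34 to 35 and 21 to 24 between lines with DMSO and siControl, and 9 to 10 and 34 to 35 for siControl against DMSO.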
